A study of Mus musculus with 6 samples.

Results

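The 51 genes described here encode enzymes, membrane proteins and proton pump subunits of the lysosome, together with *Tfeb*, a transcription factor of lysosomal genes. They were chosen as a list of gene symbols, and all 51 were found among the 17784 genes of the expression table. All 51 also passed the filter on low counts that left 12999 genes for testing. The measurement was bulk RNA-seq of epithelial cells detached from the cornea with EDTA. One group comprised 3 samples from *Prrx1-CreERT;Ptch1* f/f mice, written Ptch1Prrx1, and the other 3 samples from control mice, labelled WT, whose genotype is not described further in the sources used here for these samples. The labels give an age of 10 weeks, 3 doses of tamoxifen and an interval of 2 months for all 6 samples. *Prrx1-CreERT* drives a recombinase that acts after tamoxifen and that the study describes as active in keratocytes, the stromal cells beneath the epithelium. The study also describes it as active in corneal endothelial cells and other mesenchymal cells of the eye. The deletion was thus not directed at the cells that were sequenced. The study used male and female mice and a floxed *Ptch1* line backcrossed to C57BL/6, but the sex behind each sample was not given in the sources used here. The p-values measure the spread between these samples.

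Lysosomes are acidic organelles in which proteins, glycans, sulfated sugars and lipids are broken down. Soluble hydrolases reach them mainly through mannose 6-phosphate tags and sorting receptors, a multi-subunit ATPase pumps protons across the membrane, and the membrane itself is lined by heavily glycosylated proteins. TFEB and related factors bind short elements centred on the palindrome CACGTG in the promoters of many of these genes. In stratified epithelia such as that of the cornea, lysosomal proteases and glycosidases take part in protein turnover and in the shedding of surface cells.

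Promoter sequences are shown first because the letters of this element are shared by many of the 51 genes. RefSeq promoters of the build GRCm38.p6, from 250 bases before to 50 bases after a start site, were available for 45 of the 51 genes (55 promoters). CACGTG was present on either strand in 27.3% of these 55 promoters, against 7.15% of all 32851 promoters of the same length. The longer TCACGTG, which contains the first motif, was present in 23.6% against 3.77%, and TCACGTGA, which contains both, in 10.9% against 0.974%. The windows below were selected for the number of elements they hold, for a full TCACGTGA, or because the gene is described further below. Capitals mark CACGTG with a T before it or an A after it where present. *Lamp1* (chr8:13159084-13159160, plus strand) held 4 copies and *Gla* (chrX:134601178-134601248, minus strand) and *Mcoln1* (chr8:3500432-3500495, plus strand) held 2 each. *Cd164* (chr10:41519397-41519434, plus strand) and *Ctsd* (chr7:142387904-142387941, minus strand) are shown for 1 full TCACGTGA each, and the *Ctsd* promoter held a second CACGTG, not shown, 245 bases before the start. *Ctsf* (chr19:4855071-4855106, plus strand) and *Ctsl* (chr13:64370736-64370770, minus strand) held only the central palindrome.
Lamp1: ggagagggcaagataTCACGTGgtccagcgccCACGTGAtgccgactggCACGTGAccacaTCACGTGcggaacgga
Gla: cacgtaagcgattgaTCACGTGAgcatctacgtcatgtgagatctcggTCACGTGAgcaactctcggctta
Mcoln1: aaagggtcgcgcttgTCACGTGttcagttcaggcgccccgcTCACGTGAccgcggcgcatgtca
Cd164: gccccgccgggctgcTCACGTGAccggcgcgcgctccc
Ctsd: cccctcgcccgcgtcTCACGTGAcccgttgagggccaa
Ctsf: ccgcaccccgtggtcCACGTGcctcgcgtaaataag
Ctsl: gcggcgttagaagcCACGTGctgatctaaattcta

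The libraries were of similar depth, with totals from 20296741 to 20625813 expected counts, and 3 counts in a library corresponded to 0.142 to 0.152 CPM. Normalized counts below are counts scaled to a common library size with TMM factors, and TPM is the authors' level per length and depth. Epithelial markers were high in every sample (*Krt12* from 37107 to 49487 TPM, *Aldh3a1* from 22486 to 32148 TPM). Of the 8 epithelial markers, 1 passed the test described below, *Krt14*, a keratin of basal cells that has similar paralogs. It had 534, 535 and 644 TPM in control and 5798, 3254 and 2420 TPM in Ptch1Prrx1 samples (log2 fold change 2.81, SE 0.34, edgeR adjusted p = 0.00769). Ptch1Prrx1 replicate 1 lay at 51.7 on the first principal component (58.1% of the variance), apart from replicates 2 and 3 at 18.3 and 19.1. In the epithelium, normalized counts of *Ptch1* itself were 517, 659 and 682 in control and 390, 445 and 471 in Ptch1Prrx1 samples. In bulk samples, fewer cells of a type and less RNA per cell cannot be told apart. Of 16 leukocyte and macrophage markers in the table, 7 were tested, and none passed an adjusted p of 0.05 in edgeR's quasi-likelihood test with Benjamini-Hochberg adjustment, the test used throughout (edgeR adjusted p below), while 1 was under an unadjusted p of 0.05, 1 passed by DESeq2 and 0 by limma-voom. Their summed level was 138 to 177 TPM in control and 158 to 220 TPM in Ptch1Prrx1 samples, mostly *Itgam* and *Cd68*, while *Ptprc*, the pan-leukocyte marker, stayed at or below 0.20 TPM and *Adgre1* at or below 0.11 TPM. Of the 10 keratocyte markers in the table, 4 were tested, and only *Fbln1* rose (log2 fold change 0.93, SE 0.09, edgeR adjusted p = 0.00466). The other 3 tested, *Col1a2*, *Pdgfra* and *Col5a1*, had log2 fold changes of -2.51, -0.51 and -0.23. Their groups overlapped and they did not pass (edgeR adjusted p = 0.223, 0.107 and 0.798). The 10 markers summed to 67.5 to 95.8 TPM in control and 120 to 135 TPM in Ptch1Prrx1 samples. Most of this sum was *Fbln1*, with 57.8 to 66.4 TPM in control and 110 to 126 TPM in Ptch1Prrx1 samples. *Kera*, the defining marker, was at or below 0.07 TPM in control samples and listed at 0 in Ptch1Prrx1 samples. The 5 conjunctival markers in the table summed to 1402 to 2327 TPM in control and 2187 to 4681 TPM in Ptch1Prrx1 samples, highest in replicate 1, and 1 of them passed (*Krt8*, lower). Of the 12 immediate early genes listed, which respond quickly to many stimuli, 11 passed (91.7%), all higher in Ptch1Prrx1 samples. The share was 12.5% of epithelial, 25% of tested keratocyte and 20% of conjunctival markers, where 14.0% of all tested genes passed. The part of these cell types, of the *Krt14* change and of the immediate early response in the results below was not tested.

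As a group, the lysosomal genes were well expressed and took a similar share of the transcriptome in every sample. They summed to 7000, 7133 and 7336 TPM in control replicates 1, 2 and 3 and to 7289, 6980 and 7345 TPM in Ptch1Prrx1 replicates 1, 2 and 3, between 0.698% and 0.734% of all TPM. The ranges of the 2 groups overlapped. Levels of single genes ran from a control mean of 1543 TPM for *Ctsl* down to 2.68 TPM for *Manba*. The protease *Ctsl* ranked 75th among all genes in control samples, and the membrane protein *Laptm4a* (901 TPM), the aspartic protease *Ctsd* (692 TPM) and *Psap* (576 TPM), the precursor of the saposins that assist sphingolipid breakdown, followed it.

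**Figure D1:**
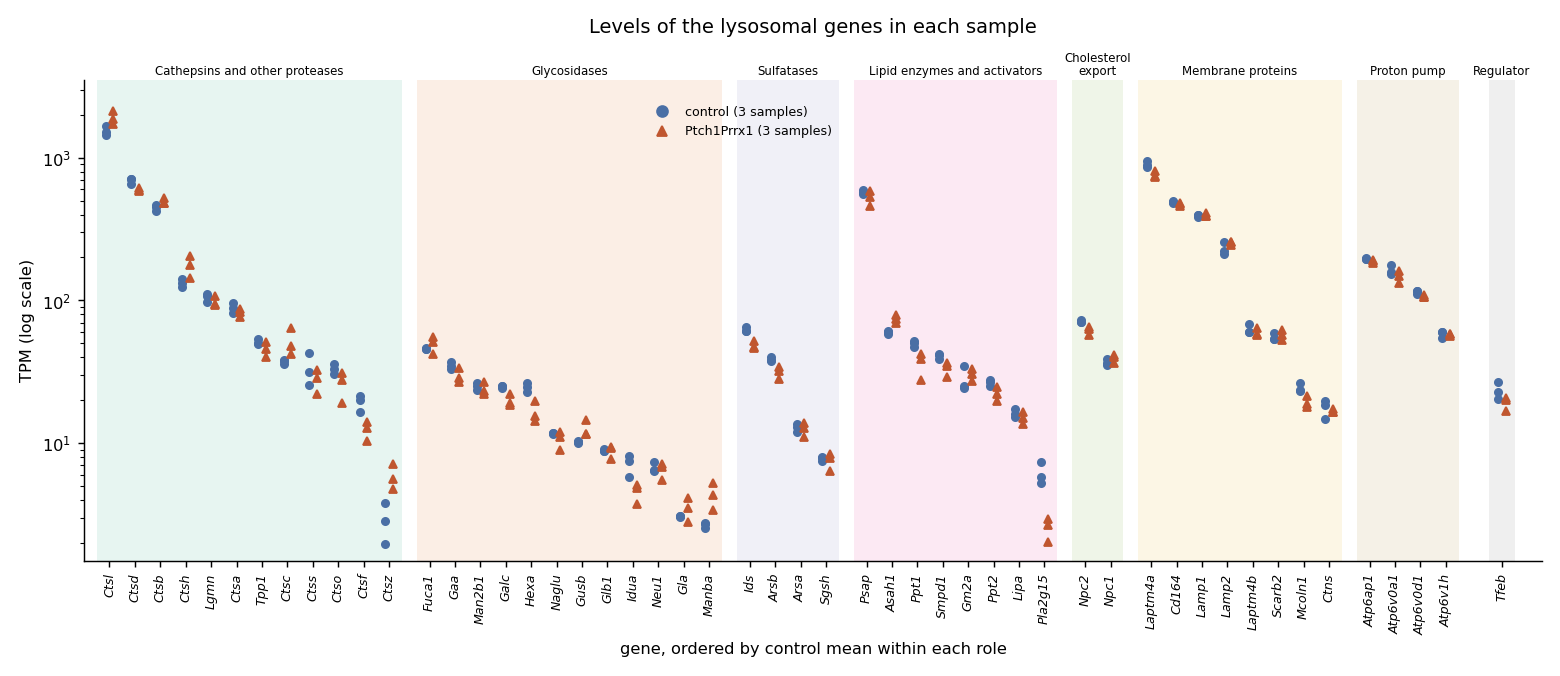
TPM of each of the 51 lysosomal genes on a log axis, grouped by role and ordered by control mean, with 1 circle for each of 3 control samples and 1 triangle for each of 3 Ptch1Prrx1 samples. *Ctsl* is the highest gene (1447 to 1666 TPM in control and 1716 to 2128 TPM in Ptch1Prrx1 samples), and for most other genes the circles and triangles lie close together.

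Of the 51 lysosomal genes, 7 passed an adjusted p of 0.05, which is 13.7% where 14.0% of all tested genes did so. *Asah1*, *Manba* and *Ctsz* rose in Ptch1Prrx1 epithelium, against a background of 7.61% of genes that rose, and *Pla2g15*, *Ids*, *Hexa* and *Ctsf* fell, against 6.41%. With the additional requirement of a fold change of at least 2, *Pla2g15* and *Ctsz* passed, 3.92% of the list against a background of 3.23%. The median log2 fold change of the list was -0.06, and that of all tested genes was -0.01. The log2 fold change was below 0 for 34 members and above 0 for 17, against 6700 and 6299 of the tested genes. By limma on log2(TPM + 1) it was 36 and 15. The median log2 fold change over genes was there -0.05 with a filter on level and -0.01 without. The normalized counts of the 2 groups did not overlap for 24 members (47.1%, background 39.9%), of which 17 were lower and 7 higher in Ptch1Prrx1 samples. Both shares past the threshold were thus near the background. Leaving out Ptch1Prrx1 replicate 1 reduced the number of members past the threshold from 7 to 4 (*Pla2g15*, *Ids*, *Asah1* and *Hexa*), and leaving out control replicate 2 reduced it to 0 (13 at an unadjusted p of 0.05, 4 by DESeq2 and 0 by limma-voom) and the 1822 genes past the threshold to 93. Leaving out control replicate 1 or 3 left 1 or 2 members, and leaving out Ptch1Prrx1 replicate 2 or 3 left 4 each.

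**Figure D2:**
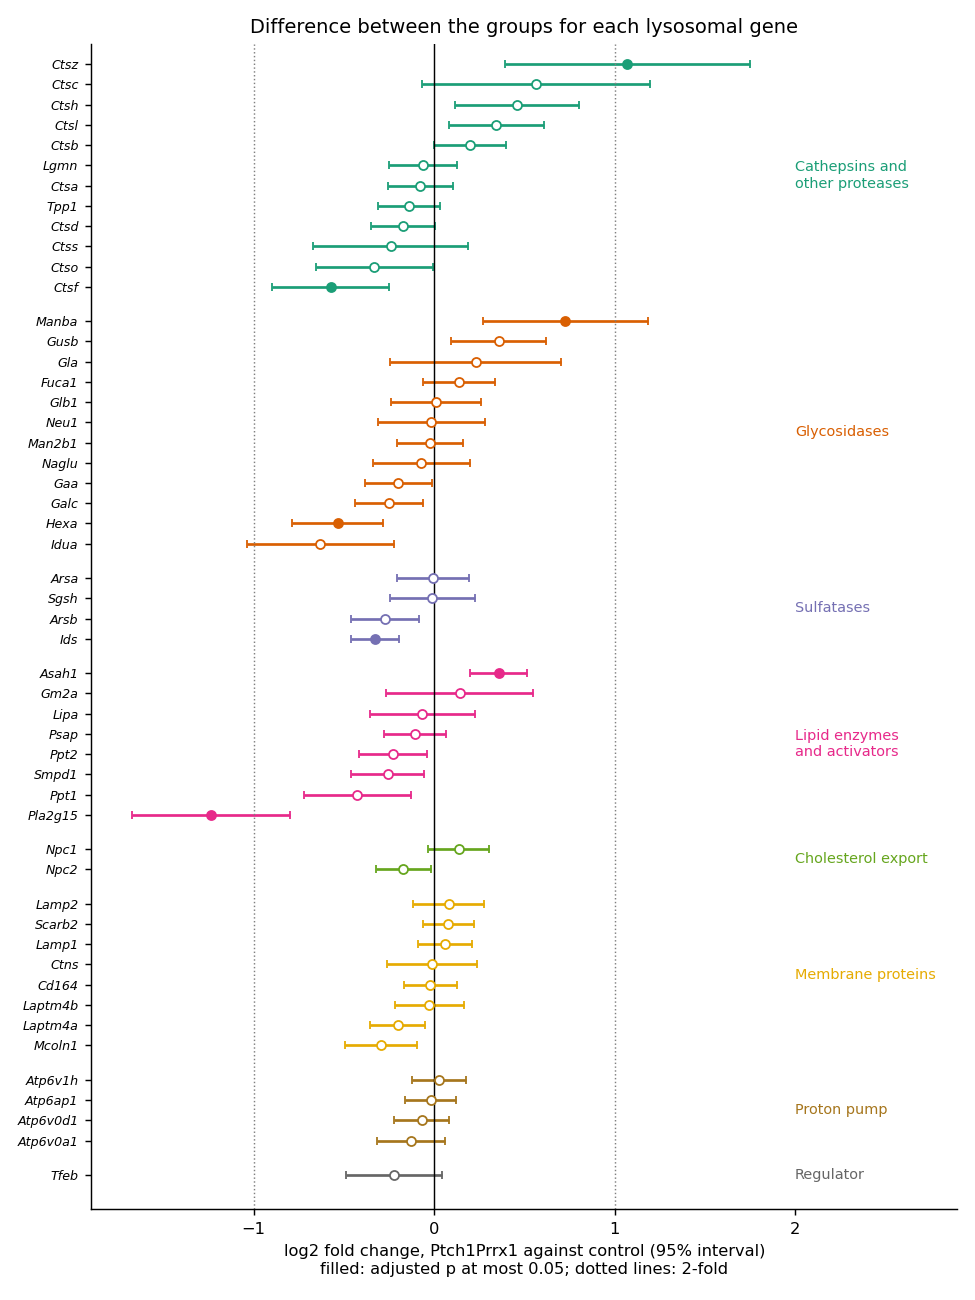
Log2 fold change of each lysosomal gene in Ptch1Prrx1 against control epithelium (3 samples each), by role, with its 95% interval from edgeR; filled points have an adjusted p of at most 0.05 and dotted lines mark a 2-fold change. The proteases, glycosidases and lipid enzymes extend to both sides of 0, from -1.24 for *Pla2g15* to 1.07 for *Ctsz*, while the membrane proteins and pump subunits lie between -0.30 and 0.08.

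The cathepsins and other proteases of the lysosome cleave proteins and peptides. Of these 12 genes, *Ctsz* rose, *Ctsf* fell and 10 did not pass, with a median log2 fold change of -0.07. The share past the threshold was 16.7%, near the background of 14.0%. *Ctsz* (gene 64138), a carboxypeptidase, had 38.8, 25.6 and 48.5 normalized counts in control replicates and 101, 64.7 and 71.7 in Ptch1Prrx1 replicates. Each Ptch1Prrx1 sample was above every control sample, and replicate 1 was the highest. The log2 fold change of *Ctsz* was 1.07 (SE 0.29, edgeR adjusted p = 0.0497), and without Ptch1Prrx1 replicate 1 it was 0.86 (edgeR adjusted p = 0.112). It passed in none of the 6 fits that left out a sample (edgeR adjusted p from 0.0627 to 0.152). *Ctsz* shares 10 exon bases with *Nelfcd* on the opposite strand, and it was the least abundant protease, with a control mean of 2.87 TPM. *Ctsf* (gene 56464), a cysteine protease, had 386, 340 and 281 normalized counts in control and 201, 235 and 241 in Ptch1Prrx1 replicates, again without overlap. It fell by 0.57 on the log2 scale (SE 0.14, edgeR adjusted p = 0.0375), and without Ptch1Prrx1 replicate 1 its log2 fold change was -0.49 (edgeR adjusted p = 0.0769). Of the fits that left out a sample, it passed only without control replicate 3, and its edgeR adjusted p in the others was 0.0587 to 0.128.

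The abundant proteases did not move in 1 direction. *Ctsl* (gene 13039), a cysteine endopeptidase, had 1447, 1517 and 1666 TPM in control replicates and 2128, 1716 and 1860 TPM in Ptch1Prrx1 replicates. Its groups did not overlap, and its log2 fold change was 0.35 (SE 0.11, edgeR adjusted p = 0.0766), short of the threshold, though it passed by DESeq2. The counts of *Ctsl* were not whole in any sample. Its annotated exons share 395 bases with *Gm49230* on the same strand and 1742 with *Gm47123* on the opposite strand, neither of them tested. *Ctsd* had 706, 715 and 655 TPM in control and 588, 609 and 597 TPM in Ptch1Prrx1 replicates, also without overlap, and a log2 fold change of -0.17 (SE 0.08, edgeR adjusted p = 0.162). The ratio of *Ctsl* to *Ctsd* TPM was therefore 2.05, 2.12 and 2.54 in control samples and 3.62, 2.82 and 3.12 in Ptch1Prrx1 samples, higher in each of the latter, although neither gene passed and this ratio was chosen after the values were seen. *Ctsh*, an aminopeptidase, had 2142, 1807 and 1911 normalized counts in control and 3298, 2177 and 2584 in Ptch1Prrx1 replicates (log2 fold change 0.46, SE 0.15, edgeR adjusted p = 0.0755), and it also passed by DESeq2. *Ctsb* had a log2 fold change of 0.20 (edgeR adjusted p = 0.151) and groups that did not overlap, but its annotated exons share 774 bases with *Fdft1* on the opposite strand. *Ctsc*, the dipeptidyl peptidase that activates granule proteases of leukocytes, did not pass (log2 fold change 0.57, edgeR adjusted p = 0.188) and was high in 1 sample, with 3070 normalized counts in Ptch1Prrx1 replicate 1, 1760 and 1351 in replicates 2 and 3, and 1533, 1273 and 1367 in control. *Ctss*, a protease of antigen-presenting cells, had 326, 384 and 517 normalized counts in control and 294, 352 and 394 in Ptch1Prrx1 samples, which overlapped (log2 fold change -0.24, SE 0.18, edgeR adjusted p = 0.399). The remaining *Ctso*, *Tpp1*, *Ctsa* and *Lgmn* had log2 fold changes from -0.33 to -0.06. The summed level of the 12 proteases, of which *Ctsl* was the most abundant, was 3125 to 3271 TPM in control and 3291 to 3778 TPM in Ptch1Prrx1 samples. A different sum, over all members of every role except *Ctsl*, was 5553 to 5670 TPM in control and 5160 to 5484 TPM in Ptch1Prrx1 samples. The TPM scale itself was lower in Ptch1Prrx1 samples, with a median log2 fold change over genes of -0.05 by limma on log2(TPM + 1) with its filter and -0.01 in edgeR's test. The differences between these sums were not tested.

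The glycosidases remove sugars one at a time from glycoproteins, glycolipids and glycosaminoglycans. Of these 12 genes, *Manba* rose, *Hexa* fell and 10 did not pass (16.7% past the threshold, background 14.0%), with a median log2 fold change of -0.02. *Hexa* (gene 15211), the alpha subunit of beta-hexosaminidase, had 428, 470 and 438 normalized counts in control and 280, 290 and 351 in Ptch1Prrx1 replicates. All Ptch1Prrx1 values were below all control values, and *Hexa* fell by 0.53 on the log2 scale (SE 0.11, edgeR adjusted p = 0.0233). It no longer passed without control replicate 1, 2 or 3 or Ptch1Prrx1 replicate 2 (edgeR adjusted p from 0.0564 to 0.10), and its counts were not whole in 3 samples. *Manba* (gene 110173), the beta-mannosidase of N-glycan breakdown, had 96.4, 94.4 and 85.4 normalized counts in control and 193, 119 and 145 in Ptch1Prrx1 replicates, so that the groups did not overlap and replicate 1 was again the highest. Its log2 fold change was 0.73 (SE 0.20, edgeR adjusted p = 0.0488), and without Ptch1Prrx1 replicate 1 it was 0.52 (edgeR adjusted p = 0.0938). Of the fits that left out a sample, it passed only without Ptch1Prrx1 replicate 2, and its edgeR adjusted p in the others was 0.0823 to 0.145. *Idua*, which removes iduronic acid from heparan and dermatan sulfate, lay just outside the threshold, with 171, 238 and 214 normalized counts in control and 114, 158 and 130 in Ptch1Prrx1 samples (log2 fold change -0.63, SE 0.17, edgeR adjusted p = 0.0527), though it passed by DESeq2. Its exons overlap those of *Dgkq* and *Slc26a1* on the opposite strand, and its counts were not whole in any sample. Whether reads were divided between these genes was not examined. *Gusb*, the beta-glucuronidase, had groups that did not overlap (209 to 236 normalized counts in control and 267 to 326 in Ptch1Prrx1 samples, log2 fold change 0.36, edgeR adjusted p = 0.0710). *Galc* and *Gaa*, which act on galactosylceramide and on glycogen, had log2 fold changes of -0.25 and -0.20 and did not pass. *Fuca1*, an alpha-fucosidase and the most abundant glycosidase, had 46.5, 45.7 and 45.7 TPM in control and 42.1, 50.8 and 55.4 TPM in Ptch1Prrx1 samples, which overlapped. For *Gla*, *Glb1*, *Neu1*, *Man2b1* and *Naglu* the groups also overlapped, with log2 fold changes from -0.07 to 0.23.

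The sulfatases remove sulfate groups from glycosaminoglycans and sulfolipids. Of the 4 members, *Ids* fell and *Arsb*, *Sgsh* and *Arsa* did not pass (25% past the threshold, background 14.0%). *Ids* (gene 15931), the iduronate sulfatase of heparan and dermatan sulfate breakdown, had 2853, 2727 and 2895 normalized counts in control and 2249, 2200 and 2306 in Ptch1Prrx1 replicates. The groups were well apart for the spread within them, and *Ids* fell by 0.33 on the log2 scale (SE 0.06, edgeR adjusted p = 0.0170). It no longer passed without control replicate 1, 2 or 3 or Ptch1Prrx1 replicate 2 (edgeR adjusted p from 0.0501 to 0.0692). *Arsb*, which acts on dermatan and chondroitin sulfate, had 1538, 1411 and 1375 normalized counts in control and 1121, 1299 and 1160 in Ptch1Prrx1 samples (log2 fold change -0.27, SE 0.08, edgeR adjusted p = 0.0625), also without overlap, and it passed by DESeq2. *Arsa* and *Sgsh* had log2 fold changes of -0.01 and -0.01, with 95% intervals from -0.20 to 0.19 and from -0.24 to 0.22. The counts of *Ids* were not whole in any sample, which can arise where reads match more than 1 gene, but this was not examined.

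Among the 8 genes of lipid breakdown, *Pla2g15* fell, *Asah1* rose and 6 did not pass (25% past the threshold, background 14.0%). Their median log2 fold change was -0.17. *Pla2g15* (gene 192654), the lysosomal phospholipase A2, had 151, 186 and 131 normalized counts in control replicates 1, 2 and 3 and 55.8, 69.8 and 72.7 in Ptch1Prrx1 replicates 1, 2 and 3. The lowest control sample was well above the highest Ptch1Prrx1 sample. *Pla2g15* was 2.36-fold lower (log2 fold change -1.24, SE 0.19, edgeR adjusted p = 0.0119), the largest change of the 51 genes by this fit, and it was -1.13 (edgeR adjusted p = 0.0191) without Ptch1Prrx1 replicate 1. The only sample without which it did not pass was control replicate 2, its highest (edgeR adjusted p = 0.0650). It was a minor transcript, with a mean of 6.14 TPM in control and 2.54 TPM in Ptch1Prrx1 samples. *Asah1* (gene 11886), the acid ceramidase, which splits ceramide into sphingosine and a fatty acid, had 1244, 1264 and 1220 normalized counts in control and 1567, 1703 and 1509 in Ptch1Prrx1 replicates. Each Ptch1Prrx1 sample lay above all control samples, and *Asah1* was 1.28-fold higher (log2 fold change 0.36, SE 0.07, edgeR adjusted p = 0.0199). It no longer passed without control replicate 1, 2 or 3 or Ptch1Prrx1 replicate 2 (edgeR adjusted p from 0.0529 to 0.0875), and its counts were not whole in any sample. *Smpd1*, the acid sphingomyelinase, which produces ceramide, had 960, 930 and 846 normalized counts in control and 696, 793 and 799 in Ptch1Prrx1 samples, lower without overlap but not past the threshold (log2 fold change -0.26, SE 0.09, edgeR adjusted p = 0.0850). The palmitoyl-protein thioesterase *Ppt1* had 1124, 1154 and 1177 normalized counts in control and 693, 999 and 882 in Ptch1Prrx1 samples (log2 fold change -0.43, SE 0.13, edgeR adjusted p = 0.0621), though it passed by DESeq2. *Psap*, the most abundant of the 8, had 13924, 13798 and 14051 normalized counts in control and 11957, 13087 and 13782 in Ptch1Prrx1 samples (log2 fold change -0.11, SE 0.07, edgeR adjusted p = 0.354). *Ppt2*, *Lipa* (the acid lipase) and *Gm2a* (the activator of GM2 breakdown) had log2 fold changes from -0.22 to 0.14. *Npc1* and *Npc2*, which hand cholesterol out of the lysosome, had log2 fold changes of 0.14 and -0.17 (edgeR adjusted p = 0.232 and 0.115). *Npc2* had 72.7, 71.2 and 70.8 TPM in control and 57.2, 65.2 and 63.5 TPM in Ptch1Prrx1 samples, which did not overlap.

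**Figure D3:**
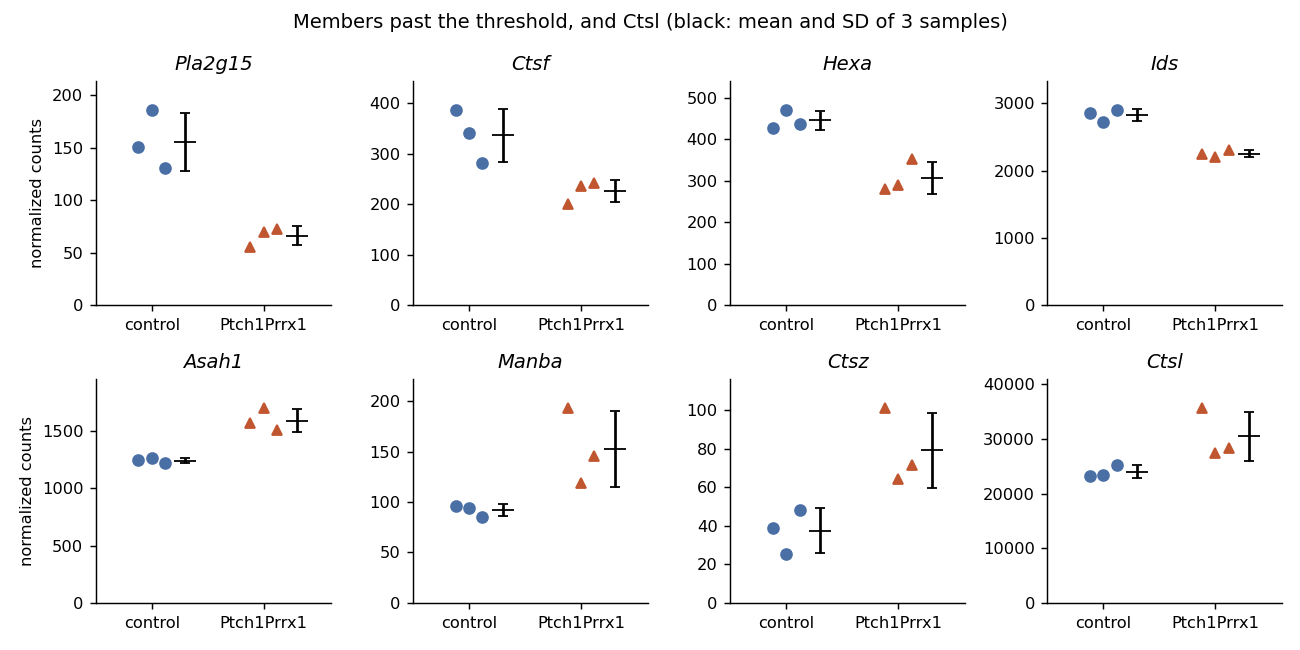
Normalized counts of the 7 lysosomal genes past an adjusted p of 0.05 and of *Ctsl* in each of 3 control samples (circles) and 3 Ptch1Prrx1 samples (triangles), with mean and SD in black and axes that start at 0. The groups do not overlap in any of the 8 panels, and Ptch1Prrx1 replicate 1, the leftmost triangle, is the highest for *Manba*, *Ctsz* and *Ctsl* and the lowest for *Pla2g15*, *Ctsf* and *Hexa*.

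None of the 8 membrane proteins or the 4 pump subunits passed the threshold in edgeR's test, where 14.0% of all tested genes did. With so few genes, a difference from that share was not tested. At an unadjusted p of 0.05, 2 of the membrane proteins (*Mcoln1* and *Laptm4a*) and 0 pump subunits had lower values. By DESeq2, 1 membrane protein (*Laptm4a*) and 0 pump subunits passed an adjusted p of 0.05, and by limma-voom none did. *Mcoln1*, the calcium channel of the lysosomal membrane, had 446, 483 and 420 normalized counts in control and 359, 355 and 385 in Ptch1Prrx1 samples (log2 fold change -0.30, SE 0.09, edgeR adjusted p = 0.0585). *Laptm4a*, the most abundant of them, had 17424, 17416 and 18203 normalized counts in control and 15838, 14830 and 15442 in Ptch1Prrx1 samples (log2 fold change -0.20, SE 0.07, edgeR adjusted p = 0.0766). Both had groups that did not overlap. The major membrane glycoproteins *Lamp1* and *Lamp2* had log2 fold changes of 0.06 and 0.08, with 95% intervals from -0.09 to 0.21 and from -0.11 to 0.28. *Scarb2*, a receptor that carries a lysosomal enzyme, *Cd164*, the cystine exporter *Ctns* and *Laptm4b* lay between -0.03 and 0.08.

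For the 4 subunits of the proton pump, the 95% intervals of the log2 fold change lay within -0.32 to 0.17. *Atp6ap1*, an accessory subunit, had 4094, 3952 and 3880 normalized counts in control and 4002, 3998 and 3766 in Ptch1Prrx1 samples (log2 fold change -0.02, 95% interval from -0.16 to 0.12). The log2 fold change was -0.13 for *Atp6v0a1* (interval from -0.32 to 0.06), -0.07 for *Atp6v0d1* (from -0.22 to 0.08) and 0.03 for *Atp6v1h* (from -0.12 to 0.17, and -0.02 by limma on TPM). All 4 overlapped between groups. *Tfeb* had 430, 552 and 451 normalized counts in control and 379, 415 and 434 in Ptch1Prrx1 samples, which overlapped (log2 fold change -0.22, SE 0.11, edgeR adjusted p = 0.213). Of the 13 genes with TCACGTG in a promoter, 0 passed in edgeR's test or by DESeq2 and 2 (*Gaa* and *Mcoln1*) had an unadjusted p under 0.05. In edgeR's test, 6 of the 32 genes with a promoter and without this motif passed, and 14.0% of all tested genes did. With so few genes, a difference between these shares was not tested. The log2 fold changes of the 13 genes ran from -0.30 (*Mcoln1*) to 0.23 (*Gla*) with a median of -0.06. *Ctsf*, whose promoter window holds the central palindrome, was the only 1 of the 15 genes with CACGTG that passed in edgeR's test, and 2 of the 15 passed by DESeq2. A motif match is a description of these letters and not of binding.

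**Figure D4:**
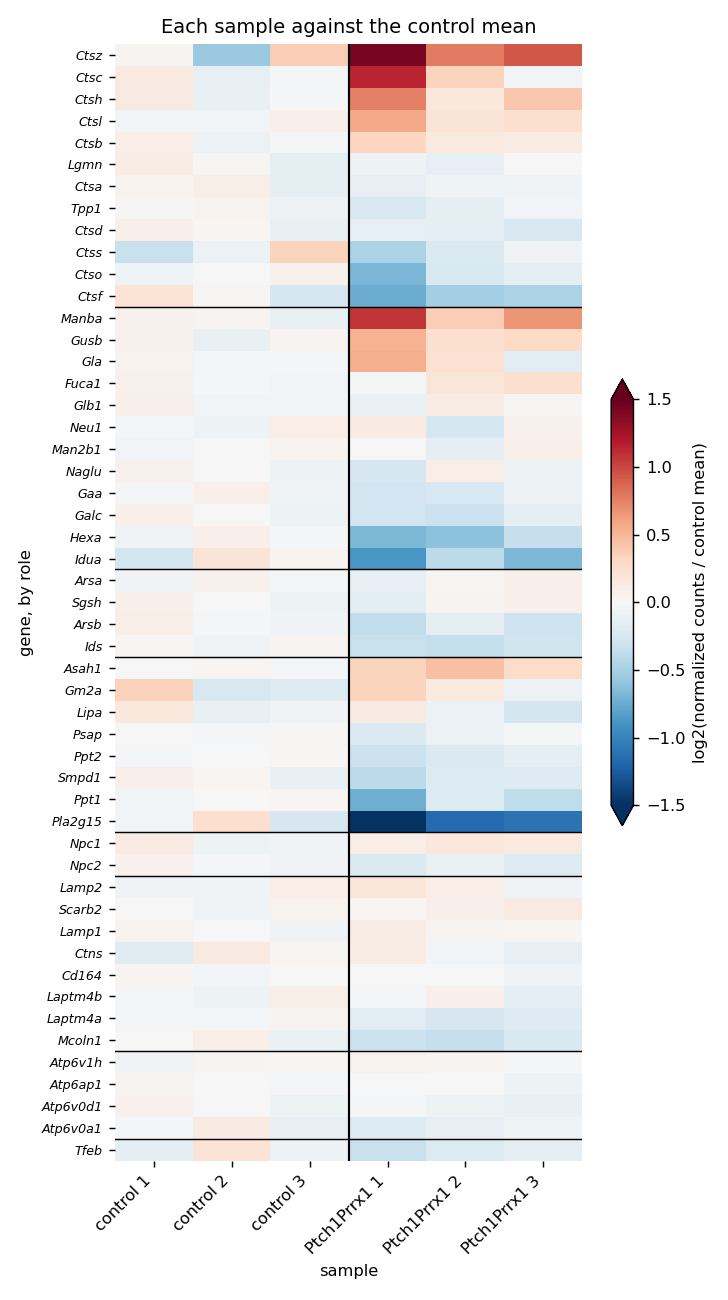
Log2 ratio of each sample's normalized counts to the control mean for the 51 lysosomal genes (rows, by role, lines between roles) in 3 control and 3 Ptch1Prrx1 samples (columns), red above and blue below the control mean. Ptch1Prrx1 replicate 1 has the deepest colours, and most membrane proteins and all pump subunits are pale.

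Within the Ptch1Prrx1 group, replicate 1 was the sample farthest from the control mean for 32 of the 51 members (62.7%), and for 56.3% of all tested genes. It was the highest of all 6 samples for 12 members, as was control replicate 1, while control replicate 2 was the highest for 10. Ptch1Prrx1 replicate 1 was the lowest for 20 members, and control replicate 2, with the next largest count, for 9. These counts were not examined over all tested genes. Ptch1Prrx1 replicate 2 was the farthest for 10 members and Ptch1Prrx1 replicate 3 for 9. For *Asah1* the farthest sample was replicate 2, and for *Ids* the log2 fold change was -0.32 without replicate 1 and -0.33 with it, so that these changes were as large without that sample. For *Ctsz* and *Manba* the estimate was smaller without it, as given above.

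Other genes of the lysosome, and genes linked to it such as inhibitors of cathepsins, were examined from lists of 96 genes. Of these 96, 94 were in the table and 84 were tested. Of the 84 tested, 7 rose and 10 fell (20.2% past an adjusted p of 0.05, background 14.0%). The genes named here beyond the 2 with the lowest p or those past a 2-fold change in each list were chosen after their values were seen. Among 22 tested hydrolases, 3 rose and 5 fell (36.4%, background 14.0%). *Hyal1*, a hyaluronidase, had 1143, 1168 and 1194 normalized counts in control and 613, 712 and 812 in Ptch1Prrx1 samples and fell by 0.71 on the log2 scale (SE 0.11, edgeR adjusted p = 0.0112). *Smpdl3a* fell by 0.49 and *Dpp7* by 0.46 on the same scale. *Galns*, a sulfatase, rose (log2 fold change 0.66), as did *Smpdl3b* (1.10, with 73.5 to 116 normalized counts in control and 152 to 293 in Ptch1Prrx1 samples).

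Of 15 further pump subunits tested, 1 passed (6.67%, background 14.0%), *Atp6v0e2*. It had 134, 110 and 60.2 normalized counts in control and 20.7, 28.7 and 37.8 in Ptch1Prrx1 samples and fell by 1.80 on the log2 scale (SE 0.35, edgeR adjusted p = 0.0224), while its paralog *Atp6v0e* had a log2 fold change of 0.13 (edgeR adjusted p = 0.518). The log2 fold change of the other 14 lay from -0.20 to 0.13. Among 18 other membrane proteins, 2 passed (11.1%, background 14.0%). *Sidt2* rose (0.47, edgeR adjusted p = 0.0237) and *Slc17a5*, the sialic acid exporter, fell by 0.43 (edgeR adjusted p = 0.0495). *Slc17a5* passed in 1 of the 6 fits that left out a sample and in 4 of the 10 other alternatives. Of 10 genes that tag or sort lysosomal enzymes, 2 passed (20%, background 14.0%). The sorting receptor *Sort1* and *Gnptg*, a subunit of the enzyme that makes the mannose 6-phosphate tag, each fell by 0.43 (edgeR adjusted p = 0.0166 and 0.0198). In this list, 9 of the 10 log2 fold changes were below 0. *Tfe3*, a relative of *Tfeb*, had 770, 758 and 794 normalized counts in control and 1254, 1025 and 1041 in Ptch1Prrx1 samples and rose (log2 fold change 0.52, SE 0.09, edgeR adjusted p = 0.0179). It was the only 1 of 14 tested genes of the transcription and mTORC1 list to pass (7.14%, background 14.0%). *Lamtor2*, with the next lowest p, had -0.24 (edgeR adjusted p = 0.0713).

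The cystatins are inhibitors of cysteine cathepsins, and 3 of the 5 tested passed, in both directions (60%, background 14.0%). *Cst6*, an inhibitor of *Ctsl* and legumain in stratified epithelium, had 701, 606 and 548 normalized counts in control and 283, 352 and 287 in Ptch1Prrx1 samples and fell by 1.01 on the log2 scale (SE 0.13, edgeR adjusted p = 0.00808). *Cstb*, a cytosolic inhibitor, had 2365, 2499 and 2834 normalized counts in control and 5258, 3530 and 3473 in Ptch1Prrx1 samples and rose (log2 fold change 0.67, SE 0.17, edgeR adjusted p = 0.0390). *Stfa3* rose by the same test (1.66, SE 0.44, edgeR adjusted p = 0.0467), but it belongs to a family of near-identical genes that can share reads, and Ptch1Prrx1 replicate 1 had 528 normalized counts where replicates 2 and 3 had 184 and 171 and control samples 103, 91.4 and 84.4. With 1 sample left out, *Hyal1*, *Smpdl3a* and *Cst6* passed in 5 of 6 fits and *Sort1* and *Tfe3* in 4. *Atp6v0e2*, *Sidt2*, *Gnptg*, *Cstb* and *Stfa3* passed in 3, *Galns* in 2, and *Dpp7* and *Smpdl3b* in 1.

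**Figure D5:**
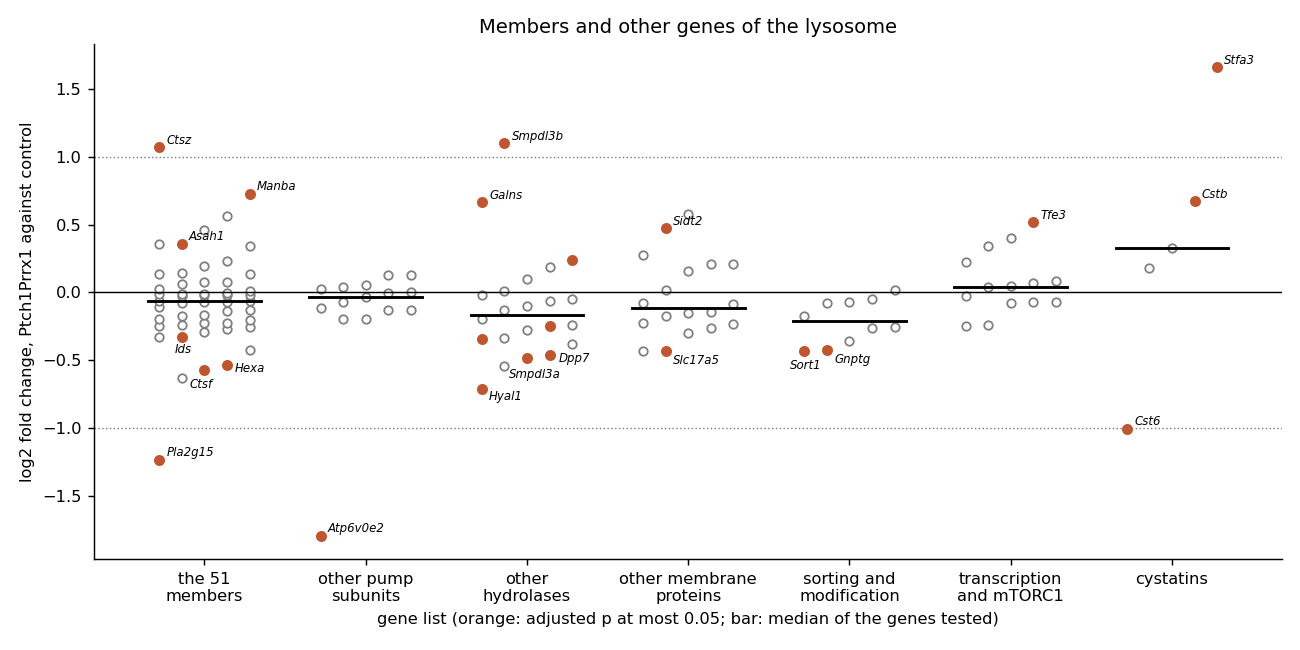
Log2 fold change in Ptch1Prrx1 against control epithelium (vertical axis) for the 51 lysosomal genes and for the tested genes of 6 other lists (horizontal axis), with genes past an adjusted p of 0.05 filled and most of them named, bars at the medians and dotted lines at a 2-fold change. Other hydrolases and sorting genes have medians of -0.17 and -0.21, and the extremes are *Atp6v0e2* (-1.80) and *Stfa3* (1.66).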

How the data were processed

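RNA-seq of 3 Ptch1Prrx1 and 3 control epithelial samples was analysed, with groups and replicate numbers from the labels. The submitters' processing notes name Bowtie2 2.2.5, RSEM 1.2.12 and the build mm9. The authors deposited RSEM expected counts, which are unscaled estimates per gene, and TPM values, scaled by the authors for length and depth. RSEM divides reads shared between genes, and 39.4% of the counts above 0 were not whole, including those of 20 of the 51 members in at least 1 sample. Whether counting used strand is not stated, and 10 members share exon bases with another tested gene. Shared exon bases were taken from a GENCODE annotation of GRCm38, not from the reference used for counting. Whether that reference holds the overlapping genes that were not tested was not examined. Labels and methods differ on the library kit.

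Expected counts were rounded and tested with edgeR 4.0.16 (filterByExpr, TMM, quasi-likelihood test) in R 4.3.3, with Benjamini-Hochberg adjustment over 12999 genes. A gene passed at an adjusted p of at most 0.05, and the study's second criterion was a fold change of at least 2. Each pair of samples within a group differed by more than sampling noise (chi-square divided by its degrees of freedom, 10.1 to 37.8). An exact test of 3 against 3 cannot give a p below 0.10. Alternatives were DESeq2 1.42.0, limma 3.58.1, other scalings, filters and pseudocounts, a replicate block, an unadjusted p and each sample left out in turn.

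The members and lists were chosen with earlier results of these data known. Members named in full were those past the threshold, the most abundant and the extreme gene of each role, *Tfeb*, *Ctss* and the pump subunits, and in the other lists those past a 2-fold change or else the 2 with the lowest p. Other genes were named after their values were seen. In the other lists, results of a few further genes are not reported here. *Mcoln3* and *Tfec* of the other lists and the markers *Lum*, *Kdr*, *Emcn* and *Muc5ac* were not analysed here. Promoters were not available for *Asah1*, *Atp6v1h*, *Ctsb*, *Ctsh*, *Laptm4b* and *Npc1*.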

Additional observations from a re-analysis of the deposited data

How the results depend on the processing

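The number of members past an adjusted p of 0.05 was 7, and 13 by DESeq2, 3 by limma on log2(TPM + 1) without a filter, 21 at an unadjusted p, and 0 to 4 when 1 sample was left out. The number past a 2-fold change was 2, and 1 without a count filter and by limma on log2(TPM + 1) with or without its filter, and 0 to 1 with 1 sample left out. Over all genes, 420 passed both criteria, 234 by limma on log2(TPM + 1), 168 without its filter, and 59 to 430 with 1 sample left out. With no fold minimum 1822 passed, 798 by limma on log2(TPM + 1) without a filter, and 93 to 1325 with 1 sample left out. Fewer samples and more genes tested are part of these settings, and the cause was not tested otherwise. *Pla2g15* passed in 5 of 6 leave-outs, *Ids*, *Asah1* and *Hexa* in 2, *Ctsf* and *Manba* in 1 and *Ctsz* in 0, and the direction of these 7 was kept in all 16 alternatives.

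The replicate numbers did not pair the samples (correlations of deviations of 0.11, -0.01 and 0.02 between the groups). With the replicate block 7 members passed, 5 of them shared. *Ctsf* and *Manba* dropped out and *Idua* and *Ctsh* came in.

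Direction turned for *Atp6v1h* by limma on TPM (-0.0174 with a pseudocount of 1, with or without a filter, and -0.0177 with 0.1) and for *Glb1* (-0.0268 and -0.0301). With 1 sample left out, log2 fold changes crossed 0 for *Naglu* (-0.16 to 0.018), *Lipa* (-0.17 to 0.030), *Atp6v1h* (-0.0010 to 0.051), *Laptm4b* (-0.085 to 0.022), *Atp6ap1* (-0.039 to 0.0088), *Cd164* (-0.043 to 0.0019), *Man2b1* (-0.071 to 0.033), *Ctns* (-0.096 to 0.056), *Glb1* (-0.043 to 0.069), *Neu1* (-0.085 to 0.092), *Sgsh* (-0.058 to 0.067) and *Arsa* (-0.046 to 0.054). With limma on TPM 15 members were above 0 and 36 below. How much of the spread of each member came from counting and how much from differences between samples was not tested.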
